A study of Homo sapiens with 18 samples.

Results

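Baicalein is a plant flavone, and its doses of 20 and 10 µM were compared here in LNCaP, an androgen-sensitive human prostate cancer cell line from a lymph node metastasis. The 6 baicalein libraries among the 18 of the series were taken, 3 with 20 µM against 3 with 10 µM, by the drug and concentration in their labels, and every gene that passed the filter on low counts was tested. Both groups were wild type LNCaP cells treated for 24 h in serum-containing medium, and poly(A) RNA was sequenced from total RNA. The other LNCaP groups had genistein, an isoflavone, at 20 or 10 µM for the same time, or were untreated, which the treatment protocol describes as DMSO vehicle. They are used beside the dose step, as are 3 libraries of untreated PC-3, an androgen-independent prostate cancer line. The labels do not say that replicates were separate cultures, so every p-value measures the spread between these libraries only, which may be technical.

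Androgen signalling drives luminal prostate genes such as KLK3, which encodes prostate-specific antigen. FOLH1 encodes prostate-specific membrane antigen, the surface protein that the study's radioligand binds. Flavonoids are known to bind many enzymes and metal ions, and cells under chemical or proteotoxic stress turn on heat shock, metal-response, integrated stress and immediate early genes.

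Total counts were 12784691, 13202350 and 10710487 in the 20 µM libraries and 10551965, 11460509 and 11142961 in the 10 µM libraries. Levels below are in CPM, read counts scaled to a common library total with TMM factors, so they are relative to the other RNA of the same library, and in bulk RNA fewer cells of a kind cannot be told apart from less RNA per cell. Mitochondrially encoded genes took 10.5, 14.5 and 12.4% of the counts with 20 µM, against 6.08, 5.61 and 4.94% with 10 µM. All 3 libraries with 20 µM lay above all 3 with 10 µM, and the means were 12.5 ± 1.97% and 5.54 ± 0.572% (SD, n = 3 each). The exact two-sided permutation p of 0.10 is the smallest that 3 against 3 allows. Within a group the libraries also differed along GC content, a description across 16136 genes that are not independent replicates. The Spearman correlation of a library's deviation from its group mean with transcript GC was -0.53, 0.60 and -0.18 in the 20 µM libraries, and 0.59, -0.40 and -0.44 in the 10 µM libraries.

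The identity of the cells was checked on marker genes, as CPM summed without scaling factors. The 12 luminal prostate markers summed to between 1140 and 1447 CPM with 20 µM and between 4253 and 4785 CPM with 10 µM, and to between 5093 and 5620 CPM in untreated LNCaP. The 12 markers of PC-3 summed to between 35.4 and 45.9 CPM with 20 µM and between 14.0 and 18.0 CPM with 10 µM, against between 3096 and 3380 CPM in PC-3 itself. Of these 12 markers 5 passed the filter on low counts, and IL32, LCN2 and VIM were called higher with 20 µM. S100A2 (1.34) and ANXA1 (0.70) were called higher as well, but S100A2 lost its call without 10 µM replicate 3, and ANXA1 lost it without 20 µM replicate 3 or 10 µM replicate 1 or 3, with library size scaling, with no filter on low counts, with GC and length trends removed and in the 6 baicalein libraries alone. The 8 fibroblast markers summed to between 11.3 and 15.8 CPM with 20 µM and between 11.5 and 13.8 CPM with 10 µM, with COL1A2 at 0 counts in all 6 libraries. The 8 leukocyte markers stayed at or under 3.41 CPM in these 6 libraries, with CD3E and MS4A1 at 0. The 8 neuroendocrine markers summed to between 10.6 and 18.2 CPM with 20 µM and between 27.6 and 39.2 CPM with 10 µM, with CHGA at 0. The neuroendocrine marker ENO2, also a glycolytic enzyme, fell (-0.98). Of the 2 fibroblast markers tested COL1A1 rose (0.47), a call lost with library size scaling, and COL3A1 fell (-2.26). COL3A1 had 8 counts over the 20 µM group and 42 over the 10 µM group. Of the leukocyte markers CD14 rose (3.87) and CD68 (-0.67) was not called. CD14 had 46 counts with 20 µM and 3 with 10 µM, so the size of its change rests on few counts. The share of these markers in the results below was not tested.

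The step between the doses moved most genes that could be tested. Of 16985 genes, 4556 rose and 4679 fell at an adjusted p under 0.05, together 9235 or 54.4% (rose 26.8%, fell 27.5%). A change of at least 2-fold was also required in a narrower rule, which 2610 genes met as rises (15.4%) and 2634 as falls (15.5%). At least 4-fold changes were called as rises for 844 genes and as falls for 784. The 3 libraries of one dose lay wholly above the 3 of the other for 9276 genes, or 54.6%. Counts within gene lists are read against these shares. The even split depends on the scaling: with library size alone 3326 genes rose and 5786 fell, the median of all genes moved to a log2 fold change of -0.22 and rises were 36.5% of the calls, against 49.3% with TMM. Against untreated LNCaP the same fit called 9708 genes with 20 µM and 68 with 10 µM, and these comparisons share libraries with the step.

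**Figure D1:**
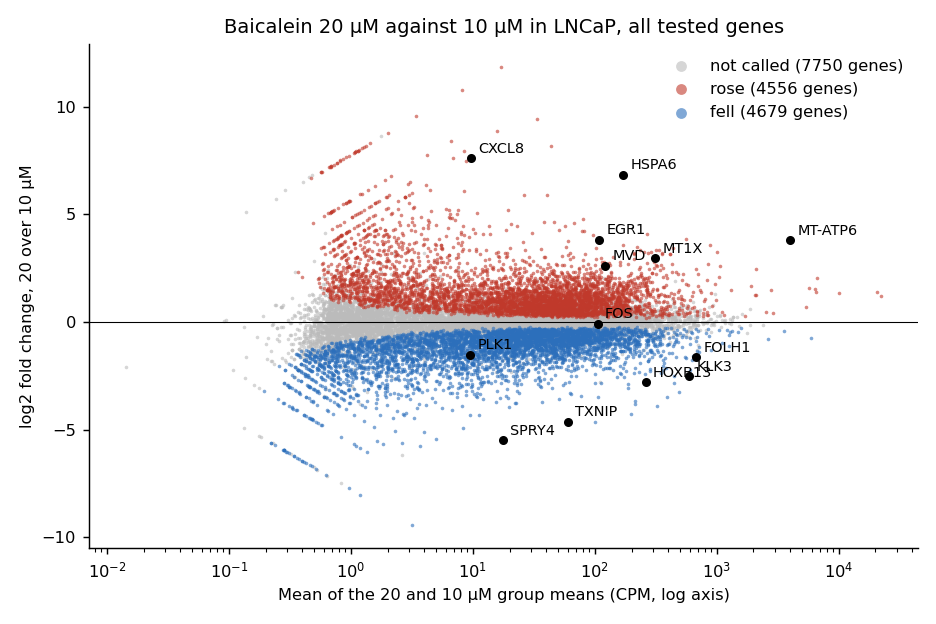
Log2 fold change of 20 over 10 µM baicalein (vertical) against the mean of the 2 group means in CPM (horizontal, log axis) for the 16985 tested genes, 1 point per gene. Red points are the 4556 genes that rose and blue points the 4679 that fell at an adjusted p under 0.05, grey points were not called, and black points are named genes, with TXNIP at -4.63 and HSPA6 at 6.85.

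Transcripts of the androgen axis fell together. HOXB13 (ENSG00000159184, chromosome 17, 48724763 to 48728750, minus strand, GRCh38), a prostate homeobox factor, had 54.2, 79.1 and 62.4 CPM in the 20 µM libraries, against 511, 431 and 429 CPM in the 10 µM libraries. The groups lay far apart, and HOXB13 fell 7.00-fold (log2 fold change -2.81 ± 0.14, adjusted p = 1.06e-08). At 409 ± 19.9 CPM in untreated cells, its log2 fold change of 10 µM against untreated was 0.16 (adjusted p = 0.726). FOXA1 and GATA2, factors that open chromatin at androgen-regulated genes, also fell (-1.42 and -1.32), as did GRHL2, an epithelial factor (-1.39). None of the 14 tested genes listed as androgen pathway factors rose, and 9 fell, with a median log2 fold change of -1.19 where that of all tested genes was 0. The list also holds FOLH1, STEAP1 and STEAP2, which are not factors, and FOLH1 (-1.63) and STEAP1 (-2.06) are among the 9. With GC and length trends removed 2 rose and 10 fell. STEAP2, NCOA2, NCOA3 and PIAS1 were among those not called.

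FOLH1 (ENSG00000086205, chromosome 11, 49145092 to 49208638, minus strand, GRCh38) had 349, 317 and 326 CPM with 20 µM, against 976, 1049 and 1037 CPM with 10 µM. Every 20 µM library lay under every 10 µM library, a fall of 1.63 on the log2 scale (SE 0.082, 95% interval -1.81 to -1.44, adjusted p = 1.14e-08). How reads that also match the similar gene FOLH1B were assigned is not given in the sources used here, and the protein was not measured. KLK3 had 154, 248 and 131 CPM with 20 µM, against 1136, 958 and 939.7 CPM with 10 µM. The 20 µM libraries varied among themselves but stayed well below the others, and KLK3 fell 5.68-fold (log2 fold change -2.51 ± 0.21, adjusted p = 7.96e-07).

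Of 25 tested androgen-induced genes 19 fell and 2 rose, with a median of -1.45. ACP3, prostatic acid phosphatase, had 16.8, 16.0 and 19.0 CPM with 20 µM and 197, 205 and 179 CPM with 10 µM (-3.49 ± 0.11, adjusted p = 3.07e-10). The libraries of the doses lay far apart. SLC45A3 (-3.35), SPDEF (-2.55), KLK2 (-2.43) and TMPRSS2 (-2.13) fell as well, while MED28 (1.02) and MAF (1.44) were the 2 that rose.

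Genes that androgen is known to repress did not go the other way. Of 11 tested, 9 fell and 1 rose, with a median of -1.53. UGT2B17, which glucuronidates androgens, had 29.9, 26.6 and 27.0 CPM with 20 µM, 193, 206 and 198 CPM with 10 µM and 138, 143 and 129.5 CPM in untreated cells. It was the lowest with 20 µM and the highest with 10 µM, and fell by 2.84 on the log2 scale between the doses (adjusted p = 3.07e-10). Its paralog UGT2B15 had 13.2, 13.0 and 12.3 CPM with 20 µM and 86.8, 107 and 98.6 CPM with 10 µM, but reads of the UGT2B family may be split between copies. ACKR3, a chemokine scavenger receptor, fell by 2.89 and DDC, which decarboxylates aromatic amino acids, by 1.01. CAMK2N1, an inhibitor of a calcium-dependent kinase, was the member that rose (0.96 ± 0.09).

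**Figure D2:**
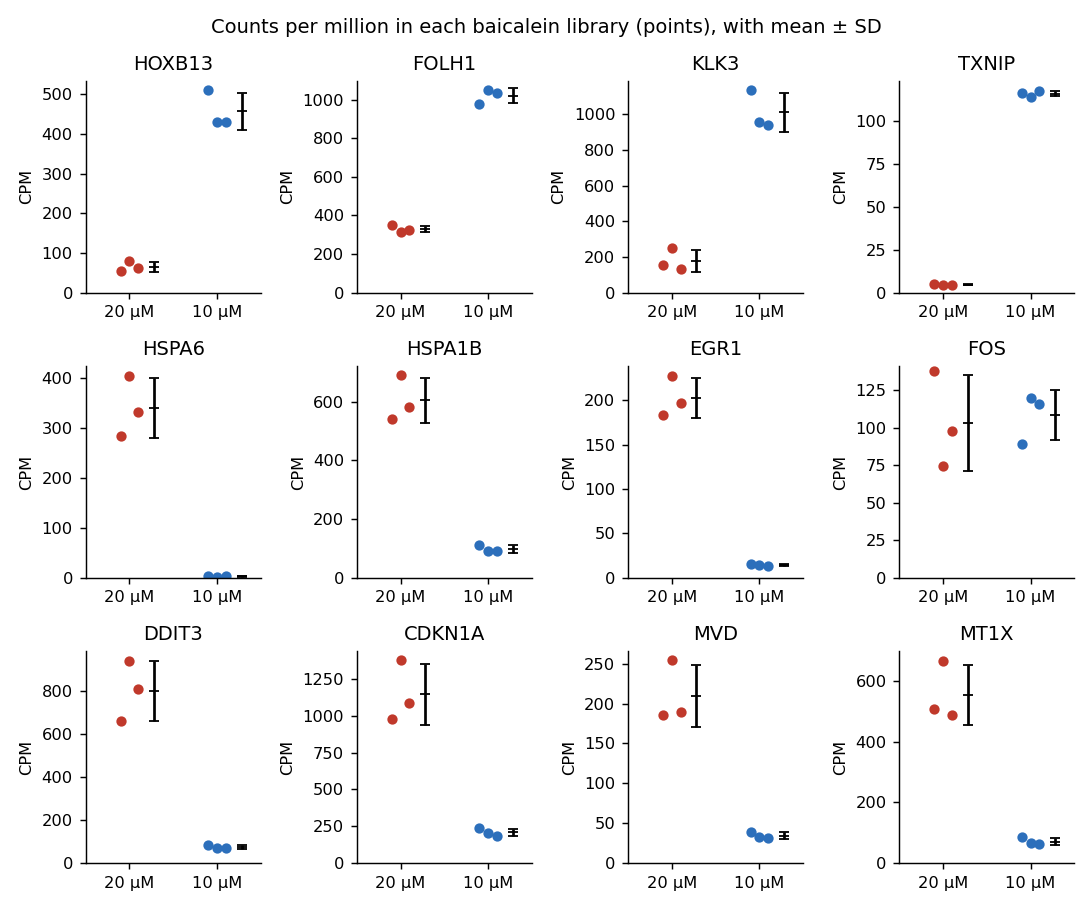
CPM of 12 genes in each of the 3 libraries with 20 µM (red, left) and the 3 with 10 µM baicalein (blue, right), with the mean ± SD of each group in black. HOXB13, FOLH1, KLK3 and TXNIP are lower and the other genes higher with 20 µM, except FOS, whose libraries overlap.

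Immediate early genes, which cells transcribe within minutes of a stimulus, were mostly higher with 20 µM, but FOS was not. EGR1 (ENSG00000120738, chromosome 5, 138465479 to 138469303, plus strand, GRCh38), a zinc finger factor, had 184, 228 and 196 CPM with 20 µM and 15.6, 14.4 and 13.2 CPM with 10 µM, and 1.35, 1.96 and 1.32 CPM in untreated cells. The 3 groups did not overlap, and the step between the doses was 3.81 ± 0.15 on the log2 scale (adjusted p = 1.07e-09). FOS, the AP-1 subunit, had 138, 74.5 and 97.7 CPM with 20 µM and 89.3, 120.1 and 115.8 CPM with 10 µM, and 7.32, 5.38 and 4.77 CPM in untreated cells. Its baicalein libraries overlapped between the doses and lay above all untreated ones, and the step was -0.07 ± 0.21 (95% interval -0.55 to 0.41, adjusted p = 0.803). Against untreated, FOS was called at 10 µM (log2 fold change 4.21, adjusted p = 3.2e-06).

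The EGR1 promoter is shown because it carries 2 CArG boxes, the element bound by serum response factor, within 200 bases before the start. This is the plus strand of chr5:138465279-138465478 on GRCh38.p14, from RefSeq, with the boxes in capitals.
EGR1: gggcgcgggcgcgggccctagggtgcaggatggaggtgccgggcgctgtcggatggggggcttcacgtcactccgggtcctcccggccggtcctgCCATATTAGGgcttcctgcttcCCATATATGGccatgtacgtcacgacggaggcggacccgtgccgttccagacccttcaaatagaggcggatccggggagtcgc
The box was searched on both strands in the 200 bases before each RefSeq start, and a gene counted when any of its starts held it. It was found in 2 of the 18 immediate early genes that have an entry, both among the 16 that rose, and in 1.23% of the 11322 tested genes with an entry.

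Of the 22 tested immediate early genes, 18 rose and none fell (background 26.8% and 27.5%), with a median log2 fold change of 1.95. The JUN partners of AP-1 rose, JUN by 2.78 and JUND by 1.95, as did FOSL2 (1.67) and ATF3 (2.80). IER5 had 62.7, 70.8 and 63.2 CPM with 20 µM and 6.55, 5.98 and 6.06 CPM with 10 µM (3.40 ± 0.16). ZFP36, which destabilizes AU-rich mRNA, had 51.2, 61.6 and 59.6 CPM with 20 µM and 10.3, 9.27 and 7.89 CPM with 10 µM (2.65 ± 0.13). The KLF factors KLF2, KLF4, KLF6 and KLF10 rose by between 2.07 and 3.56. MYC (-0.94), FOSB (-0.51) and NR4A2 (0.38) were not called.

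Feedback genes of the MAP kinase pathway divided. Among 17 tested, 10 rose and 4 fell. SPRY4, a Sprouty inhibitor of receptor tyrosine kinase signalling, had 0.676, 0.739 and 0.844 CPM with 20 µM and 36.7, 30.8 and 35.5 CPM with 10 µM. It was nearly gone in each of the 3 libraries with 20 µM (log2 fold change -5.50 ± 0.18, adjusted p = 3.36e-10), while its relative SPRY2 rose by 1.82. The call of SPRY2 was lost under 4 other settings and without any one of 5 libraries, all but 20 µM replicate 3. The dual-specificity phosphatases, which switch MAP kinases off, mostly rose, DUSP5 to 20.9, 25.2 and 22.2 CPM with 20 µM, against 2.04, 0.866 and 1.10 CPM with 10 µM. DUSP8 rose by 2.45 ± 0.12, DUSP10 by 1.96 and DUSP6 by 1.61, and DUSP2 fell by 1.81. CCND1, which encodes cyclin D1, had 44.2, 58.6 and 40.9 CPM with 20 µM and 218, 217 and 205 CPM with 10 µM, and fell by 2.15.

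Inducible HSP70 genes rose, and the constitutive HSPA8 fell. HSPA6 (ENSG00000173110, chromosome 1, 161524540 to 161526894, plus strand, GRCh38), a strictly inducible HSP70 gene, had 284, 404 and 331 CPM with 20 µM, against 3.63, 2.43 and 2.75 CPM with 10 µM and 2.18, 2.63 and 2.76 CPM in untreated cells. The 10 µM and untreated libraries were all near the bottom of the scale, and the step was 115-fold (log2 fold change 6.85 ± 0.22, adjusted p = 3.07e-10). HSPA6 stood on no list and is named for the size of its change. HSPA1B, an inducible HSP70 gene whose reads are shared with the near-identical HSPA1A, had 542, 691 and 581 CPM with 20 µM and 112, 89.8 and 91.5 CPM with 10 µM (2.63 ± 0.12). CRYAB, a small heat shock protein, had 14.3, 19.0 and 14.7 CPM with 20 µM and 1.24, 0.953 and 0.734 CPM with 10 µM (4.02 ± 0.22). The co-chaperones BAG3 (2.05), DNAJB1 (2.12) and HSPH1 (1.11) rose too.

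Of the 18 heat shock genes tested, 9 rose and 5 fell, with a median of 0.49. The 5 that fell were HSPA8, the constitutive HSP70 (-1.10 ± 0.11), HSP90AB1, the constitutive HSP90 (-0.46), the mitochondrial chaperonins HSPD1 and HSPE1 (-0.42 and -0.40) and HSPA4 (-0.29), whose call was lost without 20 µM replicate 2 or 3 or 10 µM replicate 2 or 3 and under 4 other settings. The calls of HSP90AB1, HSPD1 and HSPE1 were lost in the 6 baicalein libraries alone, where 8 of the 18 rose and 1 fell. HSP90AA1 and HSF2 were not called, and HSF1, the heat shock factor, rose by 0.57, a call lost without 20 µM replicate 1 or 2 or 10 µM replicate 2 and with library size scaling.

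Promoters of the 3 chaperone genes below are shown because they hold the inverted repeat GAANNTTC, the core of the heat shock element, given in capitals. They are the 200 bases before the RefSeq start on GRCh38.p14, HSPA6 at chr1:161524340-161524539 and HSPA1B at chr6:31827538-31827737, both on the plus strand, and DNAJB1 at chr19:14518398-14518597 on the minus strand, which is 1 of its 3 listed starts.
HSPA6: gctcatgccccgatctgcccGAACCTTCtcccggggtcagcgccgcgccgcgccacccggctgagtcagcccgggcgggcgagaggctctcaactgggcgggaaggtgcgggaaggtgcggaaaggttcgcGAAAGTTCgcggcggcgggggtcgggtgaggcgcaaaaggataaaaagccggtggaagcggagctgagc
HSPA1B: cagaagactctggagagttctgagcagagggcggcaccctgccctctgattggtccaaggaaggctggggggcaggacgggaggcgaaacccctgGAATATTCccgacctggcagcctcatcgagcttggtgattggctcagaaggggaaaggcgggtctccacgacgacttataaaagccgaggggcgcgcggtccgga
DNAJB1: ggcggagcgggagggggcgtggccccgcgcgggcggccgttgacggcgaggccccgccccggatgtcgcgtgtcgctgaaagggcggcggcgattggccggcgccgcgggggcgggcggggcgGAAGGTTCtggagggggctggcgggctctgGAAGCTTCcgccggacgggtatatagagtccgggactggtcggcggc
The repeat reads the same on both strands. It lay in the window of 9 of the 16 listed heat shock genes with an entry, of which 5 had risen, 2 had fallen and 2 were not called, and of 4.31% of the tested genes with an entry. A match is only a description of these letters.

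The metal-response genes rose with the dose. Metallothioneins are small cysteine-rich proteins that bind zinc and copper and are switched on by the factor MTF1. MT1X had 509, 667 and 487 CPM with 20 µM and 84.5, 65.4 and 61.5 CPM with 10 µM (2.98 ± 0.15, adjusted p = 1.31e-08). MT2A had 1019, 1332 and 1090.4 CPM with 20 µM and 263, 244 and 223 CPM with 10 µM (2.24 ± 0.12). MT1G and MT1F rose by 2.19 ± 0.14 and 2.04 ± 0.13, and reads may be split between these similar genes. SLC30A1, which exports zinc, had 1558, 567 and 1028 CPM with 20 µM and 45.7, 77.7 and 95.6 CPM with 10 µM, which was higher in each library but with a wide spread (3.85 ± 0.42). In all 6 of the 8 tested members rose and SLC30A10 fell, with a median of 2.12.

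The promoters of MT1X and MT2A are shown for their metal response elements, searched as TGCACNC and TGCGCNC on both strands and given in capitals. They cover chr16:56682270-56682469 and chr16:56608384-56608583 of GRCh38.p14, plus strand, from RefSeq.
MT1X: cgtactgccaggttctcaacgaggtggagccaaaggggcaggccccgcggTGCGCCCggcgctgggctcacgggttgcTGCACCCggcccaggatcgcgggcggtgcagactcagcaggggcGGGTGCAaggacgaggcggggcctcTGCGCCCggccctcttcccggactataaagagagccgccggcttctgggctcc
MT2A: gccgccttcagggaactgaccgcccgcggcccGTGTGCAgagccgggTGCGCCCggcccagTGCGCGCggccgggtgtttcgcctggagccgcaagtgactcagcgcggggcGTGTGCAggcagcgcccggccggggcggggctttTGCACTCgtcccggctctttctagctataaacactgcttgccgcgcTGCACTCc
The window held 4 matches in MT1X and 6 in MT2A. These short motifs are common, with a match in 35.1% of the tested genes that have an entry and in 3 of the 6 listed genes with one.

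The integrated stress response slows translation while ATF4 and its partners induce death, amino acid and tRNA-charging genes. DDIT3, the factor CHOP, had 659, 938 and 807 CPM with 20 µM and 85.5, 70.4 and 69.4 CPM with 10 µM, apart in all libraries (3.42 ± 0.15, adjusted p = 4.02e-09). SESN2, a stress sensor, had 444, 638 and 488 CPM with 20 µM and 62.7, 51.4 and 53.2 CPM with 10 µM (3.23 ± 0.15). CEBPB (2.90 ± 0.15), PPP1R15A (3.16), which restarts translation, TRIB3 (1.95) and SLC3A2, an amino acid transporter chain (1.94 ± 0.11), rose. Other members did not follow: the amino acid enzymes ASNS (-0.65), PHGDH (-0.79), PSPH (-1.30) and the tRNA synthetase AARS1 (-1.44) fell, and PSAT1, CHAC1 and MTHFD2 were not called. The 29 tested members thus divided into 12 that rose, 6 that fell and 11 not called, with a median of 0.27, and 11 rose and 10 fell with library size scaling.

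Among 24 genes of the unfolded protein response of the endoplasmic reticulum 11 rose and 4 fell, with a median of 0.39. ERN1, the sensor IRE1, had 234, 169 and 183 CPM with 20 µM and 47.4, 45.1 and 56.1 CPM with 10 µM (1.98 ± 0.19). HERPUD1 (1.75), DNAJB9 (2.17), the factor XBP1 (0.70), the translocon subunit SEC61B (0.70) and HSPA5, the chaperone BiP (0.80), rose, whereas the folding enzymes PDIA4 (-1.07), PDIA3 (-0.55) and PDIA6 (-0.46) fell. Of 22 targets of NRF2, the antioxidant factor, 9 rose and 4 fell, with a median of 0.10. With library size scaling 5 rose and 6 fell and the median became -0.11, so no direction is given for them. HMOX1, which degrades heme, had 105, 155 and 116.2 CPM with 20 µM and 25.6, 20.1 and 20.7 CPM with 10 µM (2.50 ± 0.16, adjusted p = 7.38e-08). GCLM, a subunit of the glutathione synthesis enzyme, had 636, 261 and 441 CPM with 20 µM and 63.9, 126 and 127 CPM with 10 µM (2.08 ± 0.36). It varied over 2-fold within the 20 µM group and was highest in the library with the lowest correlation with GC content, whose part was not tested. OSGIN1, an oxidative stress gene, rose by 1.65 and CBR1, a carbonyl reductase, fell by 0.94. NQO1 (0.11), TXNRD1 (-0.14) and SLC7A11 (0.08), genes often used to read NRF2, were not called.

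Genes known as targets of p53 rose, 18 of the 25 tested, and TP53INP1 fell. Their median log2 fold change was 1.51. CDKN1A, the cell cycle inhibitor p21, had 978, 1380.2 and 1087 CPM with 20 µM and 236, 205 and 184 CPM with 10 µM (2.46 ± 0.25, adjusted p = 3.18e-06). BBC3, the death activator PUMA, had 95.1, 131 and 102 CPM with 20 µM and 6.29, 4.07 and 4.59 CPM with 10 µM, and changed most among them (4.46 ± 0.20). AEN, a nuclease, had 325, 417 and 382 CPM with 20 µM and 47.3, 38.6 and 36.3 CPM with 10 µM (3.20 ± 0.14). In these 3 genes every 20 µM library lay above every 10 µM library, and 54.6% of all tested genes were separated in either direction. TNFRSF10B, a death receptor, rose by 2.53 ± 0.12, FAS by 2.53 and MDM2, which degrades p53, by 1.51. FDXR, SESN1, TP53I3 and GDF15 were not called, and several of the risers also stand on the stress lists above.

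In the BCL2 family, 8 of 15 tested genes rose and 4 fell. HRK, a BH3-only member that promotes cell death, had 24.4, 35.5 and 31.2 CPM with 20 µM and 4.34, 4.85 and 4.68 CPM with 10 µM (2.71 ± 0.18). PMAIP1, which encodes NOXA, rose by 2.31. BMF (-1.21 ± 0.13), BOK (-1.34 ± 0.15) and the protective BCL2L1 (-0.73) fell, the last with a call lost without 20 µM replicate 3 or 10 µM replicate 1 and in the 6 baicalein libraries alone. MCL1, a short-lived protector, had 852, 321 and 916 CPM with 20 µM and 224, 256 and 324 CPM with 10 µM. One 20 µM library lay inside the 10 µM range, and although MCL1 was called (1.38 ± 0.44, adjusted p = 0.0171), the call was lost without any one of 4 libraries, namely 20 µM replicates 1 and 3 and 10 µM replicates 1 and 2, or with no filter on low counts.

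Genes of cell division fell. Of 32 tested mitosis and G2/M genes, 27 fell and 1 rose, with a median of -1.45. BUB1B, a spindle checkpoint kinase, had 2.03, 2.13 and 1.27 CPM with 20 µM and 15.8, 18.5 and 21.0 CPM with 10 µM (-3.33 ± 0.18, adjusted p = 1.53e-08). KIF20A, a motor of cell division, had 1.35, 1.15 and 1.48 CPM with 20 µM and 12.6, 10.8 and 10.4 CPM with 10 µM (-3.09 ± 0.18). TPX2 (-2.51 ± 0.15), CDC20 (-2.20 ± 0.16), CDK1 (-2.40) and TOP2A (-2.20) fell likewise, and CENPA was the member that rose (1.50), a call lost without 20 µM replicate 2 or 10 µM replicate 1 or 2 and with no filter on low counts.

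The promoter of PLK1, a mitotic kinase with 5.22, 5.17 and 4.43 CPM with 20 µM and 14.1, 14.6 and 13.7 CPM with 10 µM (-1.51 ± 0.14), is shown for its cell cycle homology region TTTGAA, in capitals. It covers chr16:23678689-23678888 of GRCh38.p14, plus strand, from RefSeq.
PLK1: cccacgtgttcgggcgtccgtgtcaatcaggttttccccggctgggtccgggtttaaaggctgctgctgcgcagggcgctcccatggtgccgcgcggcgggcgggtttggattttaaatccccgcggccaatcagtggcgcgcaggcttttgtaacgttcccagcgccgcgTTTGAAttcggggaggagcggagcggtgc
On either strand, TTTGAA lay in the window of 14 of the 27 listed genes with an entry. The 14 were 10 of the 22 that fell, the 1 that rose and 3 of the 4 not called. Among all tested genes with an entry, 8.92% held it.

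Among 38 DNA replication and G1/S genes 28 fell and SLBP alone rose, with a median of -1.08. MCM5, a subunit of the replicative helicase, had 7.54, 8.13 and 7.38 CPM with 20 µM and 24.4, 20.2 and 22.5 CPM with 10 µM (-1.54 ± 0.10). RRM1, the large subunit of ribonucleotide reductase, had 21.5, 29.6 and 27.5 CPM with 20 µM and 103, 106 and 99.3 CPM with 10 µM (-1.97 ± 0.14), and its partner RRM2 fell by 2.84. The helicase subunit MCM3 (-1.85) and PRIM1, the primase (-1.87), fell similarly. MCM7, PCNA, TYMS and CCNE1 were not called. The E2F motif, searched as TTTCCCGC, TTTCGCGC, TTTGCCGC and TTTGGCGC on both strands, lay in the window of 15 of 33 members with an entry, 12 of them among the 23 that fell, and of 4.60% of the tested genes with an entry.

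Radioligands act by breaking DNA, so repair genes were listed. Of 32 genes of homologous recombination and the Fanconi pathway, 21 fell and 2 rose (RBBP8 and RAD51C), with a median of -1.12. FANCI had 8.69, 9.85 and 9.70 CPM with 20 µM and 39.1, 38.4 and 38.3 CPM with 10 µM (-2.03 ± 0.10). BRCA1 (-1.23) fell, as did XRCC3 (-1.59), FANCA (-1.64) and UBE2T (-1.84), which ubiquitinates FANCI and FANCD2. Of 41 genes of end joining, excision, mismatch repair and checkpoints, 19 fell and 7 rose, with a median of -0.34. PARP1, which senses strand breaks, had 36.1, 50.5 and 48.1 CPM with 20 µM and 361, 306 and 317 CPM with 10 µM (-2.87 ± 0.15, adjusted p = 1.26e-08). CLSPN, a checkpoint mediator, had 0.386, 0.657 and 0.949 CPM with 20 µM and 8.41, 11.2 and 11.8 CPM with 10 µM (-3.97 ± 0.23). POLQ, the polymerase of end joining through microhomology (-2.06), and ERCC2, a helicase of excision repair (-1.68), fell too.

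**Figure D3:**
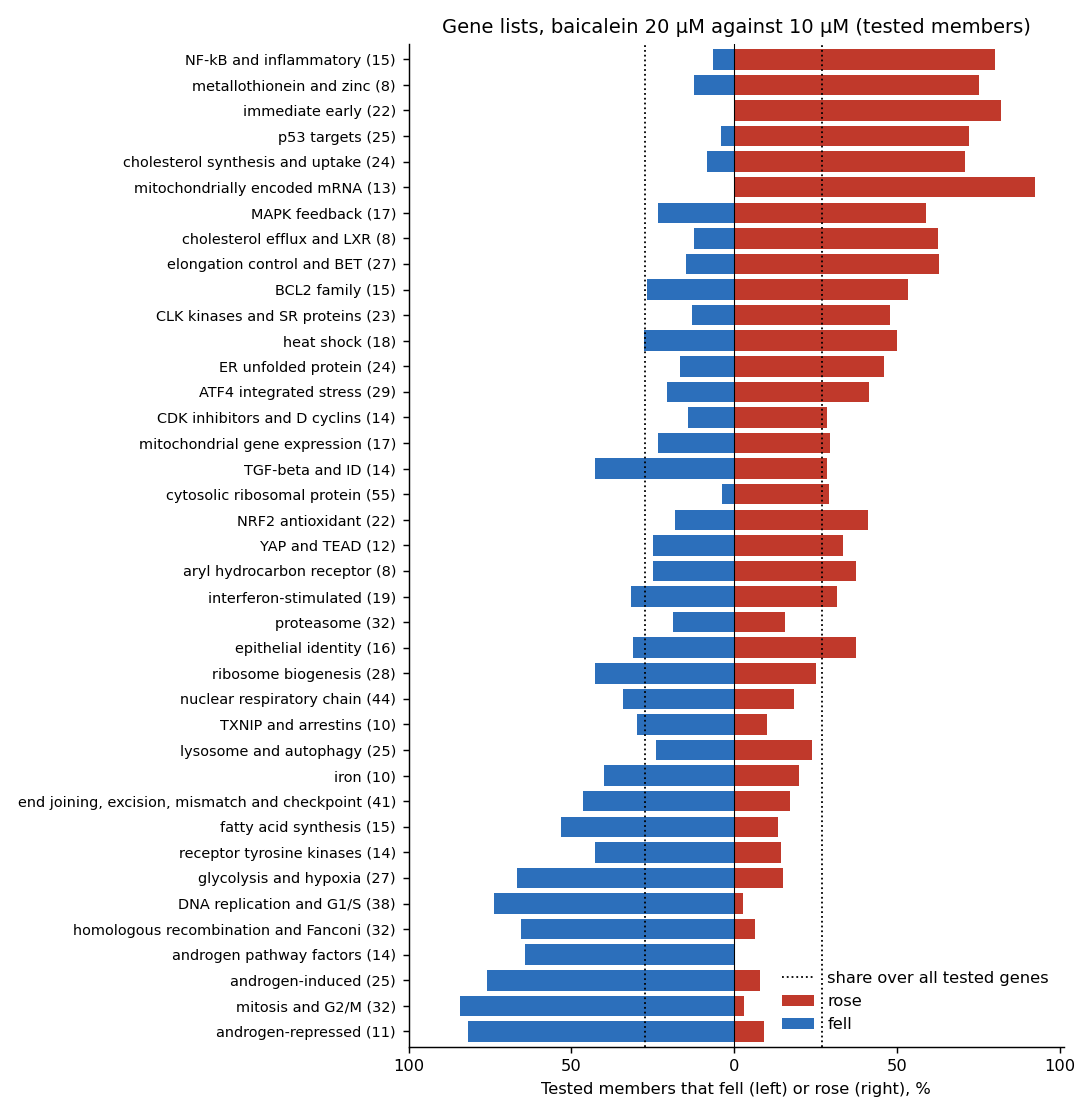
Percentage of the tested members of each gene list that fell (blue, to the left) or rose (red, to the right) at an adjusted p under 0.05, with the number tested in parentheses and lists ordered by median log2 fold change. Dotted lines mark the shares over all tested genes, 27.5% for falls and 26.8% for rises. Androgen, cell division and recombination lists reach far to the left, and immediate early, NF-kB, metal-response and mitochondrial mRNA lists far to the right.

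Sterol and fatty acid genes parted. Cholesterol synthesis and uptake genes are driven by SREBP2 when sterol is short, and 17 of the 24 tested rose and 2 fell, with a median of 1.42. MVD, an enzyme of the mevalonate pathway, had 186, 255 and 189 CPM with 20 µM, 38.7, 32.9 and 30.7 CPM with 10 µM and 36.3, 36.0 and 37.6 CPM in untreated cells. All 3 libraries with 20 µM lay above the rest, and MVD rose 6.15-fold between the doses (2.62 ± 0.14, adjusted p = 1.35e-08). FDPS had 484, 607 and 483 CPM with 20 µM and 130.3, 99.5 and 105 CPM with 10 µM (2.23 ± 0.13). HMGCS1, at the head of the pathway, had 613, 2045 and 2774 CPM with 20 µM and 308, 455 and 142 CPM with 10 µM, a wide spread within both doses (2.59 ± 0.66). MVK, mevalonate kinase (2.29), and ACAT2 (1.43) rose as well. LSS (0.31) was not called. The sterol element, searched as TCACNCCAC on both strands, lay in the window of 1 of 18 members with an entry, SREBF2, which was not called, and of none of the 13 with an entry that rose, beside 0.963% of the tested genes with an entry.

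Of 15 fatty acid synthesis genes 8 fell and 2 rose, with a median of -0.45. ACLY, which makes cytosolic acetyl-CoA, had 139, 159 and 140.3 CPM with 20 µM and 345, 273 and 328 CPM with 10 µM (-1.11 ± 0.11). ACACA, the carboxylase that commits it to fatty acids, fell by 1.35 and SREBF1, their main driver, by 0.76, whereas FASN (-0.06) was not called and ELOVL6, an elongase, rose by 0.78 ± 0.13. Among 8 genes of cholesterol efflux and the LXR receptors 5 rose, the receptor NR1H2 (0.93) among them, and LPCAT3 fell (-1.38). The efflux pump ABCA1 had 6.76, 2.13 and 3.69 CPM with 20 µM and 0.531, 0.606 and 0.275 CPM with 10 µM (3.12 ± 0.60). APOE had 95 counts with 20 µM and 3 with 10 µM over the group, a ratio of 33.4 (95% counting interval 11.1 to 165).

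Glycolytic enzymes fell, with 18 of 27 genes of glycolysis and the hypoxia response lower and 4 higher, and a median of -0.74. PFKM, phosphofructokinase, had 56.3, 74.2 and 60.7 CPM with 20 µM and 248, 208 and 194 CPM with 10 µM (-1.76 ± 0.14). PFKP fell by 1.14, PGK1 by 1.09 and LDHA by 1.81. VEGFA, a hypoxia target but no enzyme, had 307, 359 and 315 CPM with 20 µM and 131, 111 and 97.8 CPM with 10 µM and rose (1.53 ± 0.13), as did ADM (2.40). TXNIP (ENSG00000265972, chromosome 1, 145992435 to 145996579, minus strand, GRCh38), which restrains glucose uptake and binds thioredoxin, had 5.22, 4.35 and 4.43 CPM with 20 µM and 117, 114 and 117 CPM with 10 µM. The libraries of each dose agreed closely, and TXNIP fell 24.8-fold (-4.63 ± 0.11, adjusted p = 6.2e-11).

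Counts of mitochondrially encoded genes rose, but not to one extent. The mitochondrial genome is transcribed from both strands as long precursors that are cut into mRNAs for subunits of the respiratory chain, and MT-ND6 is the mRNA of the light strand. Of 13 protein-coding genes, 12 rose and none fell, with a median of 1.36. MT-ATP6 (ENSG00000198899, the mitochondrial genome, 8527 to 9207, plus strand, GRCh38) had 6952, 8136 and 7323 CPM with 20 µM and 565, 572 and 476 CPM with 10 µM, a 13.9-fold rise (3.80 ± 0.13, adjusted p = 3.94e-10). MT-ND2 had 9681, 11814 and 10497 CPM with 20 µM and 2737, 2766 and 2351 CPM with 10 µM (2.03 ± 0.12), and MT-CO2 rose by 1.55 ± 0.11 and MT-ND1 by 1.58 ± 0.11. MT-ATP8, which overlaps MT-ATP6 and is carried with it on 1 mRNA, had 2821, 3067 and 2801 CPM with 20 µM and 1264, 1259 and 1150.2 CPM with 10 µM (1.24 ± 0.10). The counts of this pair therefore do not measure separate mRNAs. MT-CO3, on the other side of MT-ATP6, rose by 0.72 ± 0.11. The light-strand MT-ND6 had 53.5, 71.7 and 48.1 CPM with 20 µM and 66.8, 46.6 and 59.1 CPM with 10 µM, which overlapped (0.01 ± 0.17, 95% interval -0.37 to 0.39, adjusted p = 0.972). Because the library kit does not mark strand, reads of the other strand over MT-ND6 cannot be told apart from its own.

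How reads in the overlap of MT-ATP8 and MT-ATP6, or shared with nuclear copies, were counted is not given in the sources used here. The nuclear copy MTATP6P1, looked up after MT-ATP6 was seen, had 822, 1041 and 922 CPM with 20 µM and 378, 372 and 321 CPM with 10 µM (1.38 ± 0.13). The mitochondrial ribosomal RNAs MT-RNR1 and MT-RNR2 rose as well, MT-RNR1 by 1.50 ± 0.11. Of the 44 nuclear genes of the respiratory chain 8 rose and 15 fell, with a median of -0.09, and with library size scaling 1 rose and 17 fell, with a median of -0.31. The complex I subunit NDUFS1 (-0.88) and the ATP synthase subunits ATP5F1B (-1.30) and ATP5MC3 (-0.78) fell. Of 17 genes of mitochondrial gene expression 5 rose and 4 fell, and 3 rose and 6 fell with library size scaling. SUPV3L1, a helicase of mitochondrial RNA decay, rose by 1.44 ± 0.12 and POLG2, a polymerase subunit, by 1.97 ± 0.18, while LRPPRC, which stabilizes mitochondrial mRNA, fell by 0.57 and TFB1M, an rRNA methyltransferase, by 0.79.

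Of 22 listed NF-kB and inflammatory genes 15 passed the filter on low counts, and 12 of these rose, with a median of 2.48. Members with almost no counts with 10 µM, such as TNF and CXCL8, could only be counted as rises. NFKB1 fell (-0.31), a call lost without 20 µM replicate 1 or 3 or 10 µM replicate 1 or 2, with no filter on low counts and in the 6 baicalein libraries alone. RELB, an NF-kB subunit, had 37.3, 52.4 and 43.4 CPM with 20 µM and 2.04, 2.51 and 1.47 CPM with 10 µM (4.46 ± 0.19, adjusted p = 3.59e-09). TNFAIP3, a feedback inhibitor, had 38.4, 41.9 and 26.6 CPM with 20 µM and 1.42, 2.25 and 1.84 CPM with 10 µM (4.27 ± 0.28). NFKB2 had 121, 163 and 131 CPM with 20 µM and 25.4, 23.7 and 18.45 CPM with 10 µM (2.62 ± 0.16). None of these 3 genes, named for their small adjusted p-values, overlapped between the doses, and 54.6% of all tested genes did not overlap either. CXCL8, the chemokine interleukin 8, had 611 counts over the 20 µM group and 3 over the 10 µM group, a ratio of 215 (95% counting interval 73.1 to 1043, counting error only). TNF had 219 counts with 20 µM and none with 10 µM. It was at least 76.9-fold higher when the 10 µM group is set to 3 counts. The median stays at 2.48 with TNF at this bound. IL6, ICAM1, CCL2 and CXCL1 to CXCL3 did not pass the filter on low counts. The kappa-B motif lay in the window of 8 of 12 members with an entry, and of 12.3% of the tested genes with an entry. The 8 were 6 of the 9 that rose, the 1 that fell and 1 of the 2 not called.

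Interferon-stimulated genes showed no common direction, with 6 of 19 higher and 6 lower. IRF1 had 44.5, 54.5 and 47.0 CPM with 20 µM and 5.22, 4.42 and 4.68 CPM with 10 µM (3.35 ± 0.20), and IRF7 (1.40) and the kinase JAK1 (2.39) rose while STAT2 fell by 1.24.

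Many genes of transcription elongation and splicing rose. Of 27 genes of elongation control and the BET proteins 17 rose and 4 fell, with a median of 0.61. CCNK, the cyclin of CDK12 and CDK13, had 111, 121 and 112 CPM with 20 µM and 50.7, 52.4 and 51.7 CPM with 10 µM (1.15 ± 0.08). CDK9 (1.11), CDK7 (1.37 ± 0.13) and BRD2 (1.12 ± 0.12) rose, while POLR2A, the largest subunit of RNA polymerase II, fell by 0.96. Of 23 genes of CLK kinases and splicing factors 11 rose and 3 fell. CLK1, which phosphorylates SR splicing proteins, had 546, 352 and 481 CPM with 20 µM and 38.8, 46.9 and 56.8 CPM with 10 µM (3.27 ± 0.18), and CLK4 rose by 2.31 ± 0.16, CLK3 by 0.79 and the splicing factor RBM39 by 1.09.

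Ribosome and protein turnover genes moved little or in both directions. Of 55 cytosolic ribosomal protein genes 16 rose and 2 fell, with a median of 0.16 that became -0.05 with library size scaling, so no direction is given for them, and RPL38 (0.68) and RPLP2 (0.59) had the smallest adjusted p-values with RPL28 and RPS19. Of 28 ribosome biogenesis genes 7 rose and 12 fell, and WDR12 had 24.2, 24.96 and 24.5 CPM with 20 µM and 69.3, 68.1 and 61.3 CPM with 10 µM (-1.43 ± 0.09). The RNA polymerase I subunits POLR1A (-1.45) and POLR1B (-1.27) and BOP1 (-1.14) fell as well. Of 32 proteasome genes 5 rose and 6 fell, under the background in both directions (2 rose and 9 fell with library size scaling), with PSMA2 (-1.47), PSMD2 (-0.92), PSMA4 (-0.82) and PSMD1 (-0.75) among the falls. Among 25 lysosome and autophagy genes 6 rose and 6 fell, with a median of -0.17, whereas with library size scaling 4 rose and 11 fell, with a median of -0.39. Autophagy genes were among the rises, MAP1LC3B with 564, 314 and 585 CPM with 20 µM and 98.2, 106 and 100.2 CPM with 10 µM (2.27 ± 0.19), WIPI1 (1.74 ± 0.10), SQSTM1 (1.68) and the factor TFE3 (1.37), and lysosomal enzymes among the falls, such as CTSB (-1.21 ± 0.13).

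Lists of growth and identity genes also went in both directions. These lists are small, and several lay near the shares over all tested genes (26.8% rose, 27.5% fell). Their counts are therefore given as a description. Of 14 genes on the receptor tyrosine kinase list 6 fell, among them ERBB3 (-1.26 ± 0.11), ERBB2 (-1.08 ± 0.14) and IGF1R (-1.19 ± 0.14). The 2 that rose include IRS2 (2.06 ± 0.12), which is an adaptor and not a receptor. Of 14 genes of TGF-beta signalling and the ID inhibitors 6 fell and 4 rose, and ID1 had 42.0, 53.8 and 49.1 CPM with 20 µM and 247, 198 and 202 CPM with 10 µM (-2.16 ± 0.12). ID3 and the inhibitory SMAD6 (-1.94) and SMAD7 (-0.99) fell with it. Of 12 YAP and TEAD genes 4 rose and 3 fell. AMOTL1 had 0.966, 1.07 and 1.05 CPM with 20 µM and 15.8, 15.2 and 14.8 CPM with 10 µM (-3.88 ± 0.11), and LATS2, a Hippo kinase (2.69 ± 0.18), AMOTL2 (2.43) and CCN1 (1.58) rose. Of 16 epithelial identity genes 6 rose and 5 fell, and the splicing regulators ESRP1 (1.70 ± 0.09) and ESRP2 (-1.53 ± 0.14) went in opposite directions, while the factors ELF3 (2.57) and OVOL1 (1.61) rose. Of 14 CDK inhibitors and D cyclins 4 rose, CDKN2D (1.62) and CDKN1A among them, and CDKN2C (-1.84) and CCND1 fell. Of 10 iron genes 2 rose and 4 fell, the reductase STEAP3 (-2.16) and the iron sensor ACO1 (-0.96) among the falls. Of 10 TXNIP and arrestin genes ARRDC2 rose (0.99), and TXNIP, its driver MLXIP (-1.25) and TXNRD2 (-0.95) fell. Among 8 genes of the aryl hydrocarbon receptor 3 rose, AHR itself by 2.50 ± 0.46, its target TIPARP by 1.67 and NFE2L2 by 0.72. The targets CYP1A1 (-0.91) and CYP1A2 (-2.24) were the 2 that fell, and CYP1A1 was at most 3.21 CPM in any of the 6 libraries. CYP1A1 lost its call without 20 µM replicate 1 or 2 or 10 µM replicate 2 and in the 6 baicalein libraries alone. CYP1A2 lost its call without 20 µM replicate 1 or 3 or 10 µM replicate 1 and with no filter on low counts.

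The largest rises among called protein-coding genes with at least 5 CPM in the higher group mostly began from few or no counts at 10 µM. MSANTD3-TMEFF1, a readthrough gene that shares exons with its neighbours, had 1054 counts with 20 µM and none with 10 µM, at least 370.1-fold higher against a floor of 3 counts over the group. ENSG00000285779, which the files pair with no name, had 499 counts with 20 µM and none with 10 µM, at least 175-fold higher, and its call was lost with no filter on low counts. TNFRSF9, a costimulatory receptor, had 428 counts with 20 µM and 1 with 10 µM, a ratio of 451 (95% counting interval 80.5 to 17851). GEM, a small GTP-binding protein, had 136, 24.2 and 101 CPM with 20 µM and 0.354, 0.433 and 0.0918 CPM with 10 µM (8.15 ± 0.71). HMX3, a homeobox factor, had 548 counts with 20 µM and 2 with 10 µM (ratio 289, interval 79.5 to 2389.6). GZMM, a granzyme, had 190 counts with 20 µM and 2 with 10 µM (ratio 100.1, interval 27.3 to 832), and ENSG00000261915 had 559 with 20 µM and 3 with 10 µM (ratio 196, interval 66.8 to 955). DNAH17, a dynein chain, had 7.73, 10.8 and 8.01 CPM with 20 µM and 0, 0.0866 and 0.275 CPM with 10 µM (6.12 ± 0.66). CXCL8, TNF and HSPA6 were also among the 12 largest.

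The largest falls, by the same limits, were led by ENSG00000285920, with 3 counts with 20 µM and 174 with 10 µM, and SPRY4. For ENSG00000285920 the ratio of 10 over 20 µM was 55.1 (95% counting interval 18.5 to 269.5), and the call was lost without any one of the 3 libraries with 20 µM, without 10 µM replicate 2 or with no filter on low counts. STUM, a membrane protein gene, had 0.0966, 0.328 and 0.211 CPM with 20 µM and 10.6, 8.49 and 10.4 CPM with 10 µM (-5.44 ± 0.27). SLC6A19, an amino acid transporter, fell by 5.10 and GPER1, a receptor that binds estrogen, by 4.92. KCNN2, a calcium-activated potassium channel, had 10.3, 5.42 and 7.38 CPM with 20 µM and 223, 149.9 and 211 CPM with 10 µM (-4.66 ± 0.26, adjusted p = 2.22e-08). RNF43, which removes WNT receptors from the surface, had 1.16, 1.07 and 0.422 CPM with 20 µM and 18.2, 17.6 and 18.7 CPM with 10 µM (-4.33 ± 0.36). ADAMTS1, a secreted protease, had 6.18, 24.2 and 29.1 CPM with 20 µM and 382, 385 and 371 CPM with 10 µM, with the first 20 µM library well under the other two (-4.26 ± 0.48). TXNIP, PCDHB8 (-4.33 ± 0.46, with reads that similar protocadherins may share), LGI2 (-4.27 ± 0.54) and AMIGO2 (-3.98 ± 0.51) were the remaining 4.

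**Figure D4:**
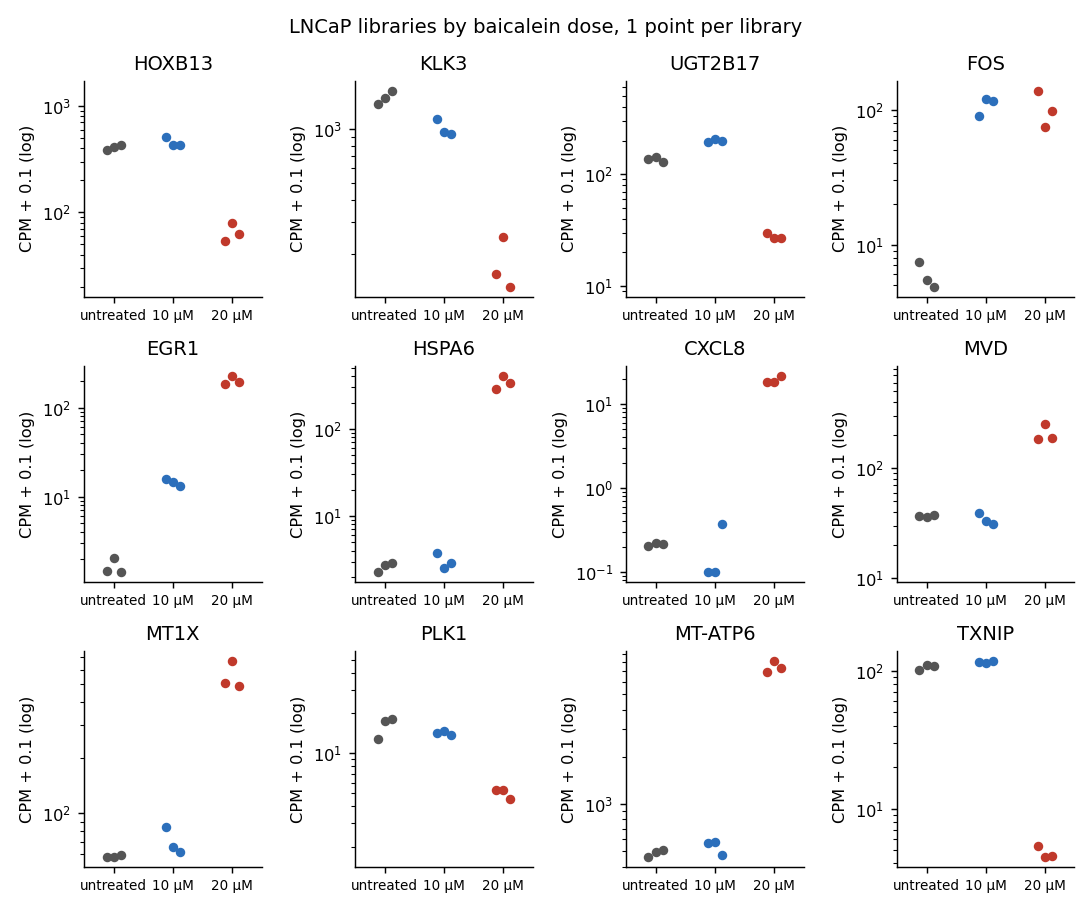
CPM plus 0.1 (log axis) of 12 genes in untreated LNCaP (grey), 10 µM (blue) and 20 µM baicalein (red), 1 point per library and 3 per group. FOS is already high with 10 µM, EGR1 is higher at each dose, UGT2B17 is highest with 10 µM, and the other genes lie near their untreated level with 10 µM or, for KLK3, somewhat below it.

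The same step was taken with genistein, an isomer of baicalein in which the phenyl ring joins the core at another carbon and the hydroxyl groups sit elsewhere. One pair of compounds was compared at matched doses and time, as the baicalein step minus the genistein step in the same fit. Of the 16985 genes, 5575 differed between the steps (32.8%), with 2634 higher and 2941 lower in the baicalein step. Of the 9235 genes called in the baicalein step, 5134 (55.6%) were among them. The genistein step itself gave 950 rises and 1296 falls, and the middle 50% of genes lay between -0.69 and 0.66 in the baicalein step and between -0.27 and 0.34 in the genistein step.

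EGR1 went in opposite directions, with 3.81 ± 0.15 in the baicalein step and -1.35 ± 0.14 in the genistein step, a difference of 5.17 ± 0.20 (adjusted p = 1.74e-08). HSPA6 averaged 2.99 CPM with genistein 20 µM and 3.09 CPM with genistein 10 µM, so its rise differed by 6.89 ± 0.28. FOLH1 had a genistein step of -0.03 ± 0.08 (difference -1.60 ± 0.11, adjusted p = 1.39e-06). FOS fell in the genistein step (-2.27 ± 0.23, adjusted p = 5.53e-05), which differed from its step with baicalein by 2.20 ± 0.31.

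The cholesterol list had a large step with both compounds. Its median was 1.42 with baicalein and 1.75 with genistein, and 7 of its 24 genes differed between the steps, 6 of them lower in the baicalein step. MVD had a step of 2.62 ± 0.14 with baicalein and 2.41 ± 0.13 with genistein, a difference of 0.21 ± 0.18 (95% interval -0.19 to 0.62, adjusted p = 0.406), which does not show that the compounds acted alike. Fatty acid genes had a median of -0.45 with baicalein and 0.75 with genistein, and 11 of 15 were lower in the baicalein step. ELOVL6 rose with both, by 0.78 ± 0.13 with baicalein and 2.67 ± 0.13 with genistein. Medians of the mitosis list were -1.45 and 0.03, with 26 of 32 genes lower in the baicalein step. In that step 18 of 22 immediate early genes, 12 of 13 mitochondrial protein-coding genes and 9 of 15 NF-kB genes were higher.

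**Figure D5:**
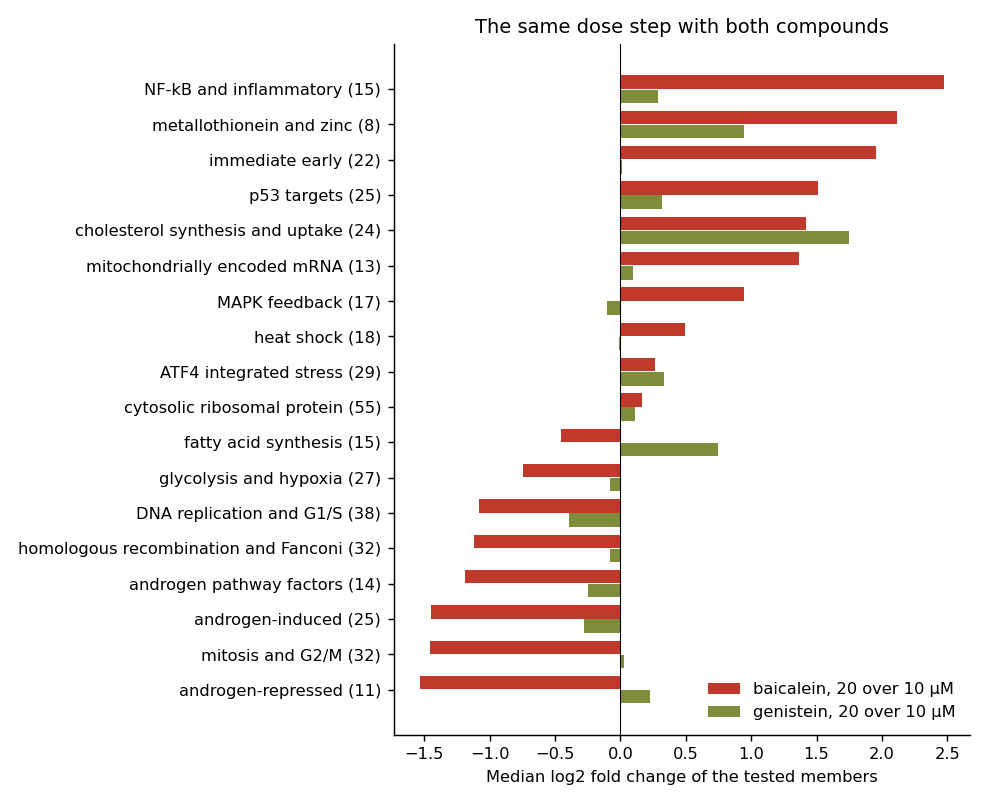
Median log2 fold change of 20 over 10 µM over the tested members of 18 gene lists, for baicalein (red, upper bar) and genistein (green, lower bar), with the number of members in parentheses. The bars are alike in direction for cholesterol synthesis (1.42 and 1.75) and opposite for fatty acid synthesis (-0.45 and 0.75).

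Gene structure was compared with the step as a description, over 5 bins of nearly equal size of the tested protein-coding genes, of which there were 12835 with an annotation. By genomic span, the median log2 fold change was 0.15 in the shortest bin, where 34.0% rose and 23.6% fell, and -0.13 in the longest bin, where 23.2% rose and 32.0% fell. By transcript length it was 0.13 in the shortest and -0.06 in the longest bin. By GC content it was 0.20 in the lowest bin, -0.10 in the next to highest and 0.04 in the highest. These differences are small beside those of the lists above. Protein-coding genes included 3684 rises and 3610 falls, antisense genes 215 and 265, and lincRNA genes 175 and 240, and antisense counts are uncertain because the library kit does not mark strand.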

How the data were processed

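Bulk poly(A) RNA-seq counts of 18 libraries were used as the authors deposited them, whole-number read counts per gene. Per the submitters' processing notes reads were processed on the GRCh38 build with tools that include STAR 2.7.6a and featureCounts 1.6.4; how strand and reads matching several genes were treated is not given in the sources used here. The deposited FPKM columns and the authors' own comparisons were not used.

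The 15 LNCaP libraries were fitted together in edgeR 4.0.16 (R 4.3.3) after filterByExpr and TMM scaling, with group means only. Each contrast had edgeR's quasi-likelihood test with Benjamini-Hochberg adjustment over all 16985 genes, and called at an adjusted p under 0.05. Values after ± are SD for levels and SE for log2 fold changes. Counting intervals are exact (Clopper-Pearson) and cover counting error only. Of the list entries 936 were matched to the table and 3 were not. Promoters are RefSeq entries matched by symbol.

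The groups, members and gene lists were chosen with earlier results of these data known. Named genes are the 12 largest rises and 12 largest falls among called protein-coding genes of at least 5 CPM whose libraries do not overlap, the 5 and 5 largest differences between the compounds by the same limits, the 4 smallest adjusted p-values of each list, and 10 genes set by name; other members are examples chosen after their values were seen. Alternatives were other scalings (DESeq2 size factors, library size), DESeq2 1.42.0, no filter on low counts, no mitochondrial genes, a GC and length correction, a replicate block, the 6 libraries alone and leaving out each library. The script was tested on simulated counts. Some genes that these rules name are not reported here.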

Additional observations from a re-analysis of the deposited data

Results flagged for a closer look

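The dose step differed between baicalein and genistein, by the test of the difference itself, for 5575 of 16985 genes (edgeR, adjusted p under 0.05). The differences below are log2 values of the baicalein step minus the genistein step, with 3 libraries in each of the 4 groups.

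Genes of several stress and growth responses differed upward in the baicalein step, but not all lists of such genes did so. HSPA6, the inducible HSP70, differed by 6.89, EGR1 by 5.17, FOS by 2.20, CDKN1A by 2.12, DDIT3 by 1.92 and HMOX1 by 1.39. Among genes whose difference was called, those of the immediate early list were higher in the baicalein step for 18 and lower for none, and those of the heat shock list higher for 8 and lower for 2. The p53 targets were higher for 13 and lower for 1, the ATF4 list higher for 9 and lower for 8, the NRF2 list higher for 3 and lower for 3, and the MAPK feedback list higher for 8 and lower for 4. FOS had a step of -0.07 ± 0.21 with baicalein and of -2.27 ± 0.23 with genistein. In the genistein step itself 12 of 29 ATF4 genes and 6 of 22 NRF2 genes rose, and none fell.

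Androgen axis genes were lower in the baicalein step, KLK3 by a difference of -1.89 and FOLH1 of -1.60. In the genistein step itself 9 of 25 androgen-induced genes fell and 1 rose (median -0.28). Of the 12 luminal prostate markers 7 fell and 1 rose in it (median -0.58). Over all 16985 genes the genistein step gave 1296 falls and 950 rises.

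Among protein-coding genes of at least 5 CPM, large differences upward were those of HSPA6, GZMM (6.53), ENSG00000261915 (6.24) and ENSG00000251537 (5.85). The difference of ENSG00000251537 lost its call with DESeq2 (adjusted p = 0.0894), with no filter on low counts (edgeR, adjusted p = 0.0888), without genistein 20 µM replicate 2 or 3 or without genistein 10 µM replicate 1 or 2. That of ENSG00000261915 lost its call without genistein 10 µM replicate 3. The largest differences downward were GEN1 (-5.02), a Holliday junction nuclease, the claudins CLDN8 (-4.29) and CLDN12 (-4.25), STUM (-4.22) and AMIGO2 (-4.13). CLDN12 had 34.1, 20.7 and 19.4 CPM with baicalein 20 µM and 131, 63.1 and 338 CPM with baicalein 10 µM, and its call was lost without 10 µM baicalein replicate 3, without genistein 20 µM replicate 2 or with no filter on low counts.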

How the results depend on the processing

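Counts of called genes stayed within 1.5 times the value above under all 14 alternatives to the dose step and 19 to the difference between compounds. The dose step gave between 6869 calls with the 6 baicalein libraries alone (15551 genes tested) and 10293 with GC and length trends removed, and 9414 with DESeq2. With the replicate block it gave 8764, and 5047 for the difference between the compounds. Same-numbered libraries of the doses did not deviate together (r = -0.40, -0.19 and 0.07 over 16985 genes). The deviations also follow the GC trend of each library, so they cannot tell whether same-numbered libraries were paired. Leaving out single libraries gave 8477 to 9147 calls for the step and 4763 to 5754 for the difference. FOS, not called, changed sign to 0.036 with GC and length trends removed, and ranged from -0.33 to 0.12 without single libraries. With library size scaling RPL28, RPS19, FTH1 and COL1A1 lost their calls. With no filter on low counts MCL1, CLDN12, ENSG00000285779, ENSG00000285920 and ENSG00000251537 lost theirs, the last with DESeq2 too. CYP1A1, SYP, FTH1 and S100A2 lost theirs without single libraries. In the 6 baicalein libraries alone ASNS and PDIA6 were among the listed members that lost theirs. The cause was not tested. Depth limits values that rest on few counts, such as the 3 of ENSG00000285920 with 20 µM.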

Other observations

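Several gene families not on the lists above were looked up after the values of all genes had been seen, so their counts are descriptions. Of 513 tested zinc finger genes named ZNF, 196 rose and 62 fell, with a median log2 fold change of 0.40, beside 26.8% and 27.5% over all genes. ZNF77 had 137, 167 and 147 CPM with 20 µM and 8.50, 7.28 and 7.99 CPM with 10 µM (4.25 ± 0.12). Of 51 histone genes 31 rose and 5 fell (median 0.86). Many histone mRNAs lack a poly(A) tail, so these poly(A) libraries may hold only a small part of them. Of 31 subunits of Mediator, which links transcription factors to RNA polymerase II, 17 rose and 7 fell (median 0.80). None of the 16 genes of the protocadherin beta cluster rose and 13 fell (median -2.45). In the gamma cluster, whose genes share exons, 16 of 21 fell (median -2.43). Of 21 tubulin genes 10 fell and 2 rose. TUBB, a major beta tubulin, had 173, 253 and 207 CPM with 20 µM and 1129, 965 and 909.6 CPM with 10 µM (-2.25 ± 0.14). Of 13 HOX genes 9 fell and 1 rose (median -1.03).

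A few single genes were chosen in the same way. AMD1, an enzyme of polyamine synthesis, had 135, 126 and 137 CPM with 20 µM and 743, 765 and 745 CPM with 10 µM (-2.50 ± 0.09). PRUNE2 fell by 3.49 and LRRN1 by 3.45.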
